A study of Mus musculus with 15 samples.

Results

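Mel18 peaks of early cardiac mesoderm precursors (MES) that overlapped no peak of Ring1b, Cbx2 or RYBP in the same cells are described here. They were chosen from the deposited peak lists as MES Mel18 peaks on chromosomes 1 to 19 with not even 1 bp in common with a peak of those 3 lists. Of 4048 autosomal MES Mel18 peaks, 417 met the rule (10.3%), and they are called partner-free peaks below. The other 3631 overlapped at least 1 of the 3 partners. The share of partner-free peaks is the rule itself and is given as a description.

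Mel18, also called Pcgf2, is a subunit of Polycomb repressive complex 1 (PRC1), which keeps developmental genes silent. In PRC1 a PCGF protein such as Mel18 pairs with a RING protein, and Ring1b is the RING subunit that places ubiquitin on histone H2A. Canonical complexes add a chromobox protein such as Cbx2, whose chromodomain binds methylated histone H3, whereas variant complexes carry RYBP or its paralogue in place of the chromobox protein. Ring1b also has a paralogue, and there are several chromobox proteins, none of which was mapped in these lists.

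All libraries came from mouse cells of the E14Tg2A embryonic stem cell line. Embryonic stem cells (ESCs) were kept with kinase inhibitors and LIF, and MES were derived from them with BMP4, typically at 0.1 to 0.3 ng/ml. Mel18 was immunoprecipitated from ESCs and from MES with the same antibody lot, and Cbx2, Ring1b (a home-made antibody) and RYBP from MES, with 5 ug of antibody each. Each of the 5 lists belonged to 1 ChIP-seq sample, so no test between lists or conditions was possible and none is given. No marker gene of the cell states was checked, since the lists name no genes. A peak missing from a list means that the authors' caller reported none there. Read depth was unknown, and read coverage was not analysed here. Intervals are at 95% (exact Clopper-Pearson for shares, order statistics for medians), cover counting error only, and treat peaks as independent.

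Partner-free Mel18 peaks were narrow and mostly stood just above the lowest score in the list. Their median width was 712 bp (interval 670 to 750), against 2043 bp (1987 to 2094) for Mel18 peaks with a partner, and the partner-free median was 1120 bp with lists of equal length. Their median score was 57.0 (56.1 to 58.8), against 192 (181 to 204), on a score that the authors' caller gave and whose scale is unknown. Scores in this list started at 50.01, and 239 of the 417 peaks scored below 60 (57.3%), against 9.12% of the peaks with a partner. Only 26 scored 100 or more, and 3 were 2 kb or wider.

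**Figure D1:**
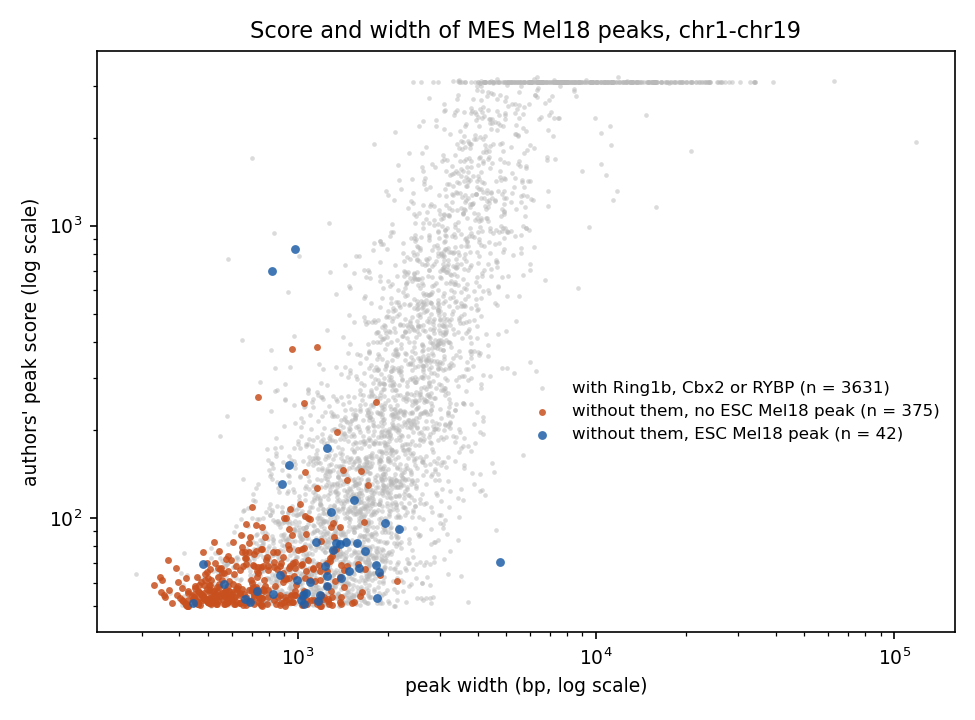
Each point is 1 autosomal MES Mel18 peak, by width in bp and the authors' score, both on log axes. The 417 partner-free peaks (orange without and blue with an ESC Mel18 peak) crowd the lower left, while 2 blue points stand apart at scores of 699 and 828 with widths of 819 and 975 bp.

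Membership fell steeply with score. When the autosomal list was divided into score quartiles, 341 of 1012 peaks in the lowest (scores of 50.01 to 73.6) were partner-free (33.7%, interval 30.8 to 36.7). In the second quartile 67 peaks were partner-free (6.62%), in the third 7 (0.692%) and in the highest 2 (0.198%). The lowest quartile thus held 81.8% of them. The count also depended on weak partner peaks: against the upper 50% of each partner list by score, 23.1% of Mel18 peaks were partner-free. Within that quartile they were still the narrower peaks, with a median width of 650 bp (600 to 701) against 1120 bp (1072 to 1164). All partner-free peaks together covered 0.343 Mb, or 2.92% of the length of autosomal MES Mel18 peaks. Across partner-free peaks, score and width were only loosely related (Spearman rho 0.38 over 417 peaks), whereas rho was 0.82 over the 3631 peaks with a partner. These correlations describe peaks of 1 library, which are not replicates, and partner-free scores spanned a narrower range (50.02 to 828, against 50.01 to 3216). Over all chromosomes, 360 of the 4165 MES Mel18 peaks shared a score of 3100, which no partner-free peak reached. These ties therefore fell among peaks with a partner.

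Few partner-free peaks coincided with a Mel18 peak of ESCs, a list that the rule did not use. An ESC Mel18 peak overlapped 42 of the 417 (10.1%, interval 7.36 to 13.4), against 66.4% of all autosomal MES Mel18 peaks and 72.9% (71.4 to 74.3) of those with a partner. The share was higher with each further partner, at 31.2% of 398 peaks with 1 partner, 58.5% of 870 with 2 and 85.2% of 2363 with all 3. Score and width rose along the same steps, with median scores of 72.8, 92.4 and 411 and median widths of 1112, 1473 and 2687 bp. In the lowest score quartile the shares were 25.7%, 51.8% (46.0 to 57.5) and 54.9% (46.9 to 62.8), and the last 2 intervals overlapped. Among peaks with a single partner, the ESC share was 43.7% of 151 peaks with Ring1b, 37.3% of 83 with RYBP and 16.5% (11.1 to 23.0) of 164 with Cbx2. The interval of the Cbx2 peaks overlapped that of the partner-free peaks, and those of the Ring1b and RYBP peaks did not. The share among partner-free peaks depended on the lists used. Leaving a partner list out of the rule adds the peaks that had only that partner, so a higher share follows from the shares above. It was 19.0% of 568 peaks without the Ring1b list, 14.6% of 500 without RYBP and 11.9% of 581 without Cbx2. Against 10.1% in the main rule, the share was 28.5% of 934 peaks with the upper 50% of the partner lists by score. With lists of equal length it was 20.9% of 460.

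The gap in ESC occupancy was also present within the lower score quartiles and, in the lowest, within classes of width. In the lowest score quartile, 26 of 341 partner-free peaks had an ESC Mel18 peak (7.62%, interval 5.04 to 10.97), against 300 of 671 peaks with a partner (44.7%, 40.9 to 48.6). In the second quartile the shares were 13 of 67 (19.4%, 10.8 to 30.9) and 581 of 945 (61.5%, 58.3 to 64.6). In the third quartile 1 of 7 partner-free peaks had an ESC peak and in the highest both did, too few to compare. Score and width still differed within a quartile, with medians of 55.04 and 650 bp against 60.2 and 1120 bp in the lowest and of 85.8 and 998 bp against 106 and 1510 bp in the second. With the lowest quartile narrowed to peaks of 500 to 1000 bp, the shares were 7 of 190 (3.68%, 1.49 to 7.44) and 71 of 253 (28.1%, 22.6 to 34.0). At 1000 to 2000 bp they were 16 of 71 (22.5%, 13.5 to 34.0) and 189 of 349 (54.2%, 48.8 to 59.5).

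**Figure D2:**
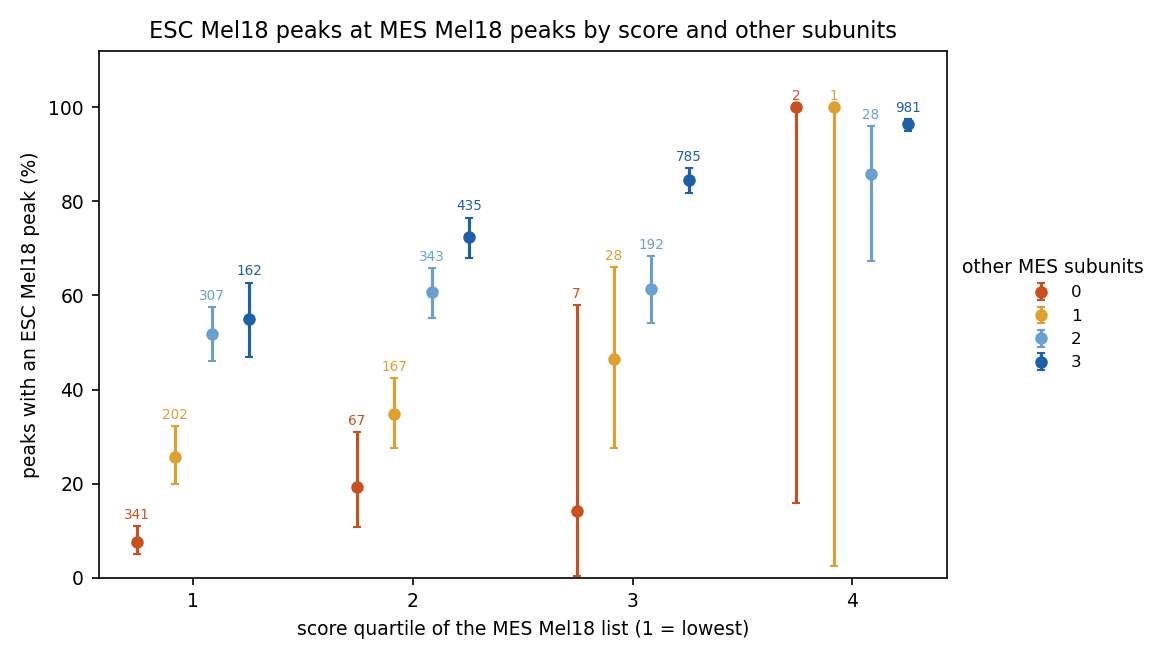
Share of autosomal MES Mel18 peaks (%) that overlapped an ESC Mel18 peak, by score quartile and by how many of Ring1b, Cbx2 and RYBP they overlapped. Bars are exact 95% intervals and the numbers are peaks: in the lowest quartile 7.62% of the 341 partner-free peaks lie below the 25.7% of the 202 peaks with 1 partner.

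The 42 partner-free peaks with an ESC Mel18 peak were wider than the 375 without one. Their median width was 1210 bp (1041 to 1341) against 674 bp (639 to 715), and 29 of 42 were 1 kb or wider, against 82 of 375. Their median score was 66.5 (60.6 to 77.5) against 56.4 (55.6 to 58.0). When partner-free peaks were divided by width into 3 classes of equal size, 3 of 139 in the narrowest (329 to 576 bp) had an ESC peak, 7 of 139 in the middle and 32 of 139 (23.0%) in the widest (911 bp or more). A wider peak also has more bases that can overlap.

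The ESC peaks at these sites were of middling rank. In the ESC list 12 of them fell in the lowest score quartile, 13 in the second, 14 in the third and 3 in the highest. ESC peaks at MES Mel18 peaks with a partner fell in the highest quartile in 1250 of 2584 cases (48.4%). The median ESC score was 98.1 (73.9 to 167), against 459 (419 to 490) at the peaks with a partner and 73.1 (71.6 to 75.1) at the 3026 ESC peaks without a MES Mel18 peak. At partner-free sites ESC peaks covered a median of 76.0% of the MES peak, against 78.2% at peaks with a partner, and the centres were a median of 126 and 253 bp apart. The MES peak was the wider in 31 of 42 pairs (73.8%), and in 2014 of 2646 pairs at peaks with a partner (76.1%).

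The 10 highest-scoring partner-free peaks with an ESC peak ranged in score from 83.0 to 828. The highest lay at chr7:19716284-19717258 (mm9) with a score of 828 and a width of 975 bp. Its nearest Ring1b peak was 11.3 kb away, its nearest RYBP peak 11.5 kb and its nearest Cbx2 peak 136 kb. The next lay at chr3:94281555-94282373, with a score of 699, and Ring1b and RYBP peaks were 63.7 and 63.6 kb from it. At both sites the ESC peak lay inside the MES peak and scored below the median of its own list (139), at 98.2 and 50.6. The third, also on chromosome 3 (chr3:18524866-18526117, score 173), was 536 kb from any partner peak.

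The fourth, at chr3:62004460-62005390 (score 151), had the reverse pattern, with an ESC peak of score 1101 and 1931 bp that extended past it on both sides. The others lay at chr13:117495211-117496092, chr8:95201367-95202909, chr2:62249269-62250553, chr17:45736888-45738850, chr7:105508244-105510431 and chr3:36120532-36121677. The one on chromosome 13 stood 91 bp from a Ring1b peak and 2 bp from another Mel18 peak. Of these 10 peaks, 3 had a partner peak within 10 kb and 7 were over 100 kb from Cbx2. Among all 42 partner-free peaks with an ESC peak these counts were 13 (31.0%) and 22 (52.4%), and among all 417 they were 134 (32.1%) and 202 (48.4%).

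Of the 375 partner-free peaks without an ESC peak, the 10 with the highest scores ranged from 135 to 384. The highest lay at chr5:124561536-124562693 (score 384). Its nearest partner was a Ring1b peak at 78.9 kb, and the nearest ESC and MES Mel18 peaks were 426 kb away. The next lay at chr4:138935853-138936810 (score 379), at 27.0 kb from Ring1b, 27.1 kb from RYBP and 193 kb from Cbx2. Those at chr6:146525630-146526365 (score 259), chr17:25409507-25411330 (score 250), chr17:26259901-26260948 (score 247) and chr2:24774228-24775642 (score 146) also had Ring1b as the nearest partner. Cbx2 was 76.4 kb or more from each of these 4.

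Other peaks among the same 10 lay close to a partner. The peak at chr13:78306555-78307904 (score 197) was 403 bp from Ring1b, 520 bp from Cbx2 and 360 bp from another Mel18 peak. The peak at chr18:77080459-77081921 (score 135) had Cbx2 at 100 bp, Ring1b at 163 bp, RYBP at 630 bp and an ESC Mel18 peak at 69 bp. The remaining ones lay at chr8:107820827-107822457 and chr11:49423089-49424144, at 5.58 and 183 kb from a partner. Of the 10 peaks, 2 had a partner peak within 1 kb, 4 within 10 kb, and 6 were over 100 kb from Cbx2. Among all 375 partner-free peaks without an ESC peak these counts were 61 (16.3%), 121 (32.3%) and 180 (48%).

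Distances follow in part from the rule and are given as a description. The median partner-free peak was 27.4 kb from the nearest peak of any partner (interval 20.4 to 33.5). By list, the median was 35.9 kb (27.0 to 44.8) to Ring1b, 41.4 kb (32.3 to 49.0) to RYBP and 93.2 kb (75.8 to 118) to Cbx2. The autosomal lists held 8434 Ring1b, 7494 RYBP and 3600 Cbx2 peaks, so the order of the distances was the reverse of the order of list length. The median to any partner was 55.9 kb with the upper 50% of the partner lists by score and 57.2 kb with lists of equal length. The nearest partner was Ring1b for 181 peaks (43.4%), Cbx2 for 125 (29.98%) and RYBP for 111 (26.6%). For 221 peaks (53.0%) the distances to Ring1b and to RYBP differed by no more than 1 kb, and for 141 (33.8%) those to Ring1b and to Cbx2.

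Peaks with and without an ESC Mel18 peak stood at distances whose intervals overlapped. The median to any partner was 46.9 kb (11.3 to 80.5) for the 42 with an ESC peak and 26.5 kb (20.3 to 32.0) for the 375 without. To Ring1b it was 53.5 kb (16.1 to 87.9) and 32.1 kb (24.8 to 42.1), to RYBP 62.9 kb (36.6 to 92.1) and 38.2 kb (30.7 to 46.2), and to Cbx2 110 kb (77.7 to 201) and 92.9 kb (70.0 to 117). The 375 were a median of 65.2 kb (51.7 to 79.1) from the nearest ESC Mel18 peak, which lay within 1 kb of 29 of them and within 10 kb of 91.

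**Figure D3:**
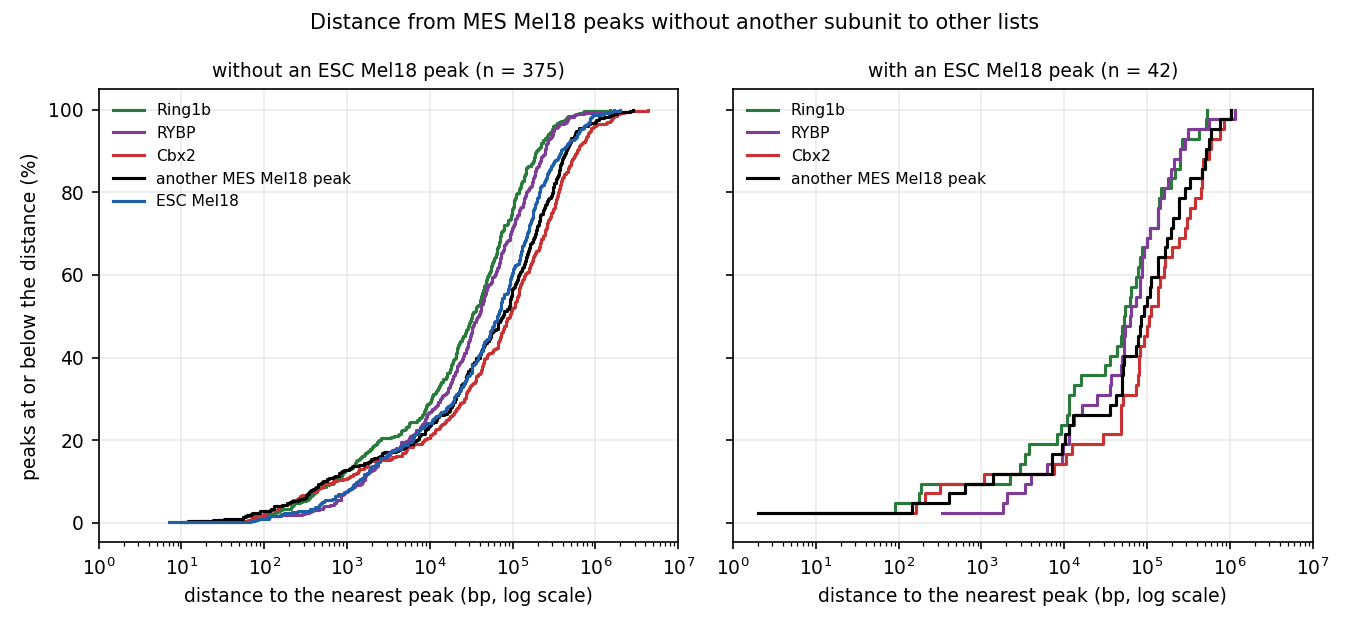
Cumulative share (%) of partner-free peaks by distance in bp (log axis) to the nearest peak of each list, for the 375 without (left) and the 42 with (right) an ESC Mel18 peak. In both panels the Ring1b and RYBP curves lie left of the Cbx2 curve over most of the range, with medians of 32.1, 38.2 and 92.9 kb on the left.

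Partner-free peaks ranged from the edges of partner peaks to isolated sites. A partner peak lay within 1 kb of 67 of them (16.1%, interval 12.7 to 19.95), at 1 to 10 kb from another 67, at 10 to 100 kb from 196 (47.0%) and beyond 100 kb from 87 (20.9%). Of the 67 within 1 kb, Ring1b was that close to 52, Cbx2 to 44 and RYBP to 30, and 16 had all 3 that close. The nearest partner region, made by joining overlapping Ring1b, Cbx2 and RYBP peaks, held all 3 partners for 34 of these 67 (50.7%), against 24.8% of all 9942 such regions. It held a MES Mel18 peak for 46 of them (68.7%, 56.2 to 79.4), against 32.6% of all regions.

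For partner-free peaks 10 to 100 kb away, the nearest region held all 3 partners in 51 of 196 cases (26.0%), and beyond 100 kb in 24 of 87 (27.6%). The regions nearest to those peaks held a MES Mel18 peak in 35.7 and 37.9% of cases, with intervals that included the 32.6% of all regions. Ring1b with RYBP and without Cbx2 made up 26.0 and 28.7% of them, against 25.4% of all regions.

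The share with an ESC Mel18 peak stayed between 8.96 and 11.5% in all distance classes. It was 6 of 67 (8.96%) within 1 kb of a partner, 7 of 67 (10.4%) at 1 to 10 kb, 19 of 196 (9.69%) at 10 to 100 kb and 10 of 87 (11.5%) beyond, with overlapping intervals. Median width was 733 bp (648 to 858) within 1 kb, 842 bp at 1 to 10 kb, 709 bp at 10 to 100 kb and 605 bp (544 to 682) beyond 100 kb. Median score ran only from 56.2 to 61.2 across these classes.

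Partner-free peaks less often had another Mel18 peak close by than peaks with a partner. Another MES Mel18 peak lay within 10 kb of 96 of 417 (23.0%, interval 19.1 to 27.4), against 36.8% of all autosomal Mel18 peaks and 38.3% (36.8 to 39.9) of those with a partner. Within 1 kb the shares were 12.5% (9.46 to 16.0) of partner-free peaks and 29.9% (28.4 to 31.4) of those with a partner. Within 100 kb they were 56.4% (51.4 to 61.2) and 60.7% (59.1 to 62.3). The gap was thus no wider at 10 kb than at 1 kb, and at 100 kb the intervals overlapped. In the lowest score quartile the shares within 10 kb were 21.7% (17.4 to 26.5) and 34.6% (31.0 to 38.3). In the second they were 31.3% (20.6 to 43.8) and 35.6% (32.5 to 38.7), with overlapping intervals. By number of partners, the lowest-quartile shares were 44.1% with 1, 27.0% (22.1 to 32.4) with 2 and 37.0% with 3. The interval with 2 partners overlapped that of the partner-free peaks. For 84 of the 96 partner-free peaks with a Mel18 neighbour within 10 kb (87.5%), that neighbour had a partner. The same held for 50 of the 52 with a neighbour within 1 kb. Of all 4048 autosomal MES Mel18 peaks, 3631 had a partner and 10.3% had none, so a high share is also found list-wide. Of the 67 peaks within 1 kb of a partner, 51 had a Mel18 neighbour within 10 kb, and of the 87 beyond 100 kb 2 had one; most Mel18 peaks overlap a partner, so these counts are tied to the distance classes by construction. Only 14 partner-free peaks lay within 10 kb of each other, as 7 pairs, and the other 403 had no such neighbour of their own kind. Partner peaks stood on both sides within 10 kb for 23 of the 417 (5.52%), on 1 side for 111 (26.6%) and on neither for 283 (67.9%). Joining Mel18 peaks within 1 kb, and those of the other lists likewise, left 366 partner-free regions, of which 12.02% had another Mel18 region within 10 kb. Joining removes every neighbour within 1 kb, so a lower share follows from the setting. Joined regions with a partner were not counted, so the value gives no comparison.

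Partner-free peaks without an ESC overlap also had fewer ESC Mel18 peaks close by. An ESC Mel18 peak lay within 1 kb of 29 of these 375 (7.73%, interval 5.24 to 10.9), against 191 of the 985 Mel18 peaks with a partner and without an ESC overlap (19.4%, 17.0 to 22.0). In the lowest score quartile the shares were 24 of 315 (7.62%, 4.94 to 11.1) and 73 of 371 (19.7%, 15.8 to 24.1). The sets also differed in width, and its part in this difference was not tested.

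The extremes of distance show what the rule separates. Farthest from any partner was a peak at chr14:96916927-96918227 (score 50.6), 1503 kb from Ring1b. The next were at chr1:56040245-56040798 (score 55.3) at 576 kb, chr6:98432147-98432553 (score 57.8) at 545 kb, chr3:18524866-18526117, described above, at 536 kb and chr7:143775890-143776314 (score 50.2) at 524 kb. All but the one on chromosome 3 belonged to the lowest score quartile.

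Just inside the rule stood the widest partner-free peak, at chr4:135698421-135703190 (4770 bp, score 70.8), which ended 9 bp from a Ring1b peak and overlapped an ESC Mel18 peak of score 294. The other near misses lay at chr12:50496894-50497441 (10 bp from Ring1b), chr14:64559056-64559806 (14 bp from Ring1b), chr5:148704111-148705384 (14 bp from RYBP) and chr11:16160645-16161709 (28 bp from Ring1b). Just outside it were Mel18 peaks at chr15:40488296-40488706, with 9 bp under a Cbx2 peak, at chr2:118304294-118305032 and chr2:147201363-147202110, with 19 and 29 bp under Ring1b peaks, at chr1:186821742-186822544, with 21 bp under Ring1b, and at chr13:99140337-99141142, with 33 bp under Cbx2. Next to the 4770 bp peak, the widest partner-free peaks were 2188 bp at chr7:105508244-105510431, 2152 bp at chr9:78328484-78330635, 1963 bp at chr17:45736888-45738850 and 1877 bp at chr2:165818053-165819929.

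**Figure D4:**
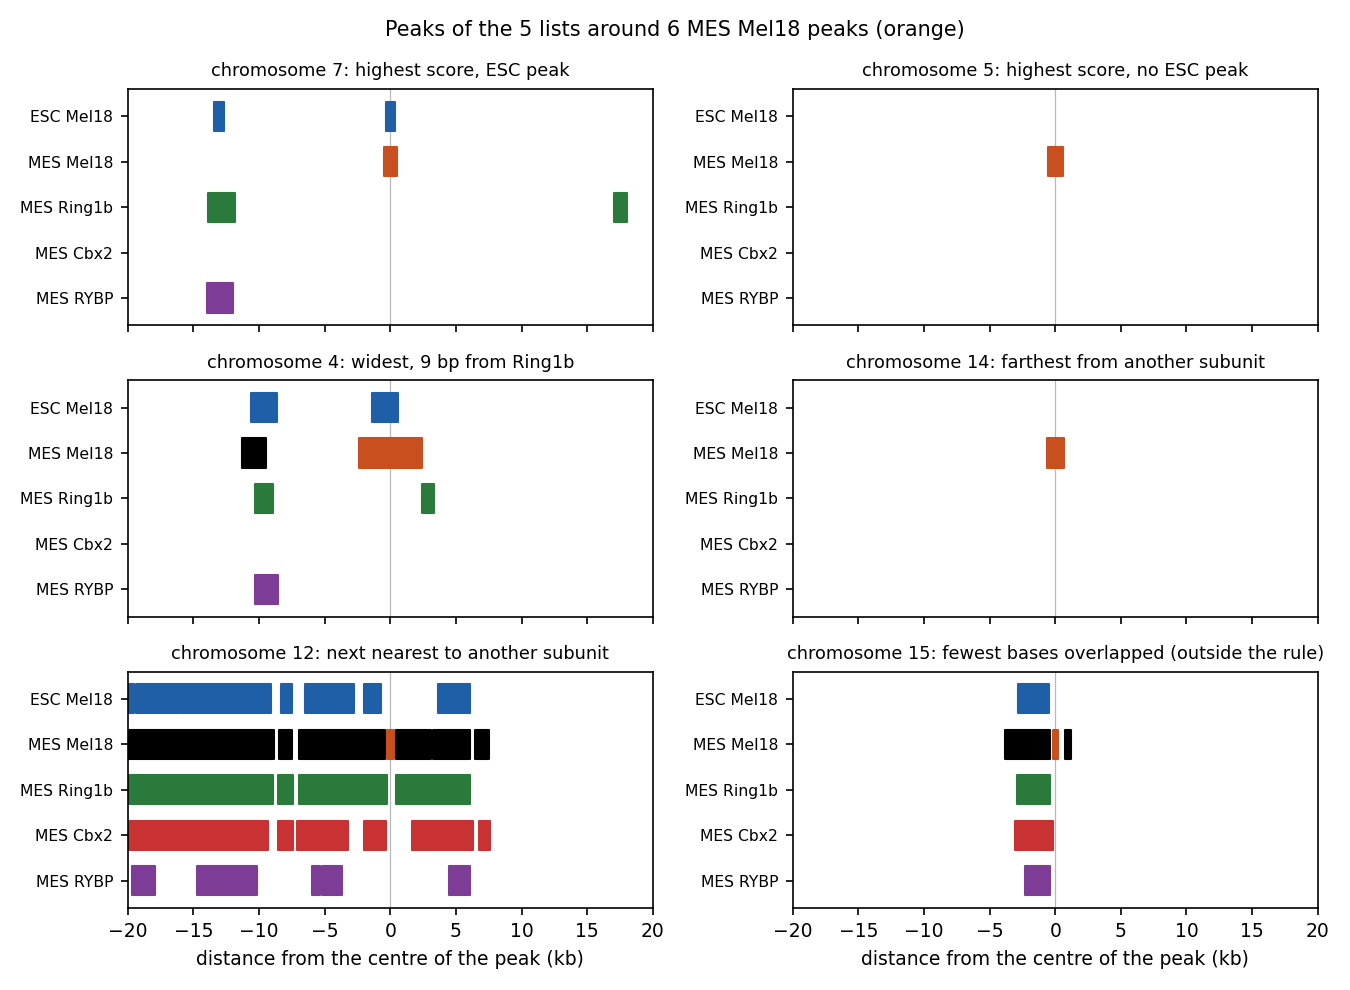
Peaks of the 5 lists within 20 kb of the centre of 6 MES Mel18 peaks (orange), drawn to scale, with distance in kb and 1 row per list. The windows on chromosomes 5 and 14 hold no other peak, the window on chromosome 12 holds 8 MES Mel18 peaks in a PRC1-covered stretch, and the peak on chromosome 15 lies outside the rule by a 9 bp overlap with Cbx2.

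Partner-free peaks were found on every autosome. Their share of Mel18 peaks ran from 4.70% on chromosome 19 (7 of 149, interval 1.91 to 9.44) and 5.88% on chromosome 18 (9 of 153, 2.72 to 10.9) to 16.1% on chromosome 9 (34 of 211, 11.4 to 21.8). Lowest-quartile peaks also differed among these chromosomes, at 20.1, 17.0 and 30.3% of Mel18 peaks. Among lowest-quartile peaks alone, 6 of 30 on chromosome 19, 8 of 26 on chromosome 18 and 31 of 64 on chromosome 9 (48.4%) were partner-free.

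Peaks without the other subunits made up a smaller share of the Mel18 list than of the Ring1b or RYBP list. Counted in the same way among the 4 MES lists, 26.4% of Ring1b peaks (2223 of 8434), 19.3% of RYBP peaks (1448 of 7494) and 12.6% of Cbx2 peaks (453 of 3600) overlapped no other subunit, against 10.3% of Mel18 peaks. The lists differed in length, and with 3600 peaks per list the share of Mel18 peaks was 12.8%, while the other lists were not recounted at that length. An ESC Mel18 peak lay at 15.1% (13.3 to 17.0) of the RYBP peaks without other subunits, at 9.49% (8.30 to 10.8) of such Ring1b peaks and at 5.52% (3.60 to 8.04) of such Cbx2 peaks. The interval at partner-free Mel18 peaks (10.1%, 7.36 to 13.4) overlapped each of these. Among peaks with another subunit the shares were 59.3% for RYBP, 55.3% for Ring1b, 73.1% for Cbx2 and 72.9% for Mel18. A lower ESC share at peaks without other subunits was thus found in all 4 lists, but not on like terms. In the Ring1b, RYBP and Cbx2 lists such peaks also lacked a MES Mel18 peak, whereas each partner-free Mel18 peak is one. Of all autosomal MES Mel18 peaks, 66.4% overlapped an ESC Mel18 peak. In those lists a low ESC Mel18 share can therefore follow in part from the way of counting. The lowest score quartile of the own list held 81.8% of the partner-free Mel18 peaks and 78.4% of such Cbx2 peaks, against 51.5% for Ring1b and 56.1% for RYBP.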

How the data were processed

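ChIP-seq peak lists of 5 samples were used, and the IgG and RNA-seq samples were not analysed here. Each list gives the position of a peak, a name with the tag of the MACS caller and 1 score, per the file headers and peak names. The score was deposited by the authors without a scale, so it ranked peaks only within a list. Reads were placed on mm9, and Bowtie and TopHat were named, per the submitters' processing notes. The caller's version and settings, the control and any pooling are not given in the sources used here. Starts are printed counting from 1. A distance is the number of bases between 2 peaks. Score quartiles and all counts are over chromosomes 1 to 19. Named peaks are the 10 highest-scoring with and without an ESC peak, the 5 widest, the 5 farthest from and the 5 nearest to a partner, and the 5 with the fewest overlapped bases. The members, lists and rules were chosen with earlier results of these data known. No gene or sequence was assigned to a peak, because the annotation used here is of another build than mm9. Overlaps and distances were computed with Python 3.11.15, numpy 2.4.6, pandas 2.3.3 and scipy 1.17.1, tested on simulated data, and checked against bedtools 2.31.1, with 0 of 4048 peaks that differed for each of the 4 other lists. Plots used matplotlib 3.10.9. Alternatives were other overlap rules, the upper 50% of lists, lists of equal length, joined peaks and sex chromosomes. The rule without 1 partner list was added after the data were examined.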

Additional observations from a re-analysis of the deposited data

Results flagged for a closer look

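The X chromosome lay outside the counts above, which were limited to chromosomes 1 to 19. It held 19 MES Mel18 peaks without Ring1b, Cbx2 or RYBP among 117 (16.2%, interval 10.1 to 24.2). Their median score was 64.3 (range 50.4 to 128) and their median width 622 bp, and 2 of the 19 had an ESC Mel18 peak. With the sex chromosomes kept, an ESC Mel18 peak lay at 10.1% of 436 partner-free peaks and at 72.8% of 3729 peaks with a partner. The X was not counted apart for peaks with a partner.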

How the results depend on the processing

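No paired analysis was possible because there was 1 sample for each antibody and cell state. Of 56 values recomputed under the alternatives, 23 stayed within the interval of the main value and 33 moved. The cause was not tested, except that a rule on overlap or lists changes which peaks are counted. In these and the 3 alternatives added later, 10 in all, ESC Mel18 peaks were at a smaller share of partner-free peaks than of the others. With 50% of the shorter peak required, 11.7% of Mel18 peaks were partner-free, at a median of 18.5 kb from a partner, and 40.2% had one within 10 kb. With partners within 1 kb counted as shared, these values were 8.65%, 37.8 kb and 19.1%, and 12.9% had another Mel18 peak within 10 kb. The peaks that the 50% rule adds do overlap a partner, by less than that share, so a shorter distance follows from the setting. The 1 kb rule takes out the peaks nearest to a partner, so a longer distance follows from it. In the upper 50% of the Mel18 list by score, 0.445% (9 peaks) were partner-free, with medians of 259 for score and 1048 bp for width. Of them 33.3% had an ESC peak (87.6% of the others), 22.2% a partner and 11.1% another Mel18 peak within 10 kb. With the upper 50% of the partner lists, 23.1% were partner-free, with ESC peaks at 28.5% (77.8% of the others), medians of 66.7 for score and 1029 bp for width and 55.9 kb to a partner, and 25.9 and 27.9% had a partner or a Mel18 peak within 10 kb. With 3600 peaks per list, the values were 12.8% partner-free, 20.9% with an ESC peak (68.0% of the others), a score of 71.8, 1120 bp, 57.2 kb and 23.7% with a partner within 10 kb. With peaks within 1 kb joined, 78.0% of the others had an ESC peak, the distance was 35.5 kb, and 23.0 and 12.02% had a partner or a Mel18 region within 10 kb. Keeping the sex chromosomes moved none of the 8 values. Without the Ring1b list in the rule, 14.0% were partner-free and 19.0% of them had an ESC peak. Without Cbx2, 14.4% were partner-free and 75.5% of the others had an ESC peak. Without RYBP, 12.4% were partner-free and 14.6% of them had an ESC peak. Unknown depth limits all counts, since peaks near the lowest score can enter or leave a list.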

Other observations

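The 2 partner-free peaks of the highest score quartile were narrow for that quartile. Of the 1012 autosomal Mel18 peaks in the highest score quartile, 5 were under 1 kb wide. These 5 included both partner-free peaks of that quartile, at chr3:94281555-94282373 and chr7:19716284-19717258, as the third and the fifth narrowest. Of the others, 1 had a single partner and 2 had all 3. The median width of peaks with a partner in that quartile was 4580 bp. Their median score was 1881, against 764 for the partner-free peaks, so the sets were not matched in score.

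At 3 partner-free sites, singled out after their values were seen, the ESC Mel18 peak ranked in the highest quartile of its list. At chr12:109153638-109155234, an ESC peak of score 2826 and 3014 bp lay over a MES peak of score 67.3 and 1597 bp, 62.2 kb from the nearest partner. The sites at chr3:62004460-62005390 and chr2:170236444-170237631 had ESC scores of 1101 and 689, and their MES peaks scored 151 and 54.4. The MES peak was the narrower at all 3. Scores of different lists are not on a known common scale, so ranks within each list are what can be read here.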
